A study of Bos taurus with 15 samples.

Results

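The 10 genes described here make up a defence system against peroxides and reactive electrophiles, namely GPX1, GPX4, GSTP1, GCLC, GCLM, GSR, NFE2L2, KEAP1, NQO1 and TXNRD1. They were chosen by symbol, and all 10 had a row in the authors' filtered table of 10832 genes, out of 34773 genes counted, 9 under the symbol itself and GSTP1 under a synonym. RNA came from pools of 8 to 14 bovine blastocysts produced in vitro, and each treatment had 5 libraries. Control embryos (Co) were cultured without oviductal extracellular vesicles (oEVs), and the other treatments received oEVs of postovulatory cows either fresh (FeEV) or after freezing and thawing (FoEV). Per the study's text, both kinds of oEVs came from the same oviducts and differed by the freezing step. The labels place the embryos at day 7 and the methods give 8 days of culture, and the 15 libraries were selected from 21 pools for RNA quality and amount.

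Glutathione is a tripeptide made in the cytosol, with glutamate cysteine ligase as the rate-limiting enzyme. Peroxidases spend it to reduce hydrogen peroxide and lipid peroxides, transferases attach it to electrophiles, and glutathione reductase restores it from its oxidized form with NADPH. The transcription factor NRF2, encoded by NFE2L2, switches on many of these genes, and KEAP1 holds it in the cytoplasm for degradation until oxidants modify KEAP1. Oxidative stress is a known hazard of embryo culture, and this system is one of the main protections of the embryo.

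No member passed an adjusted p of 0.05 in any of the 3 comparisons with edgeR's quasi-likelihood test. In FoEV vs. Co, 2 members (GPX4 and NFE2L2) had an unadjusted p under 0.05, compared with 15.1% of all genes tested, while 0.00923% of all genes (1 gene, ETNK1, not a member) passed the adjusted threshold. In FeEV vs. Co, 1 member (GCLC) had an unadjusted p under 0.05 beside 4.15% of all genes, and in FoEV vs. FeEV, 1 member (GPX4) did beside 8.52% of all genes. The share of all genes passing the adjusted threshold was 0.0% in each of these latter comparisons. The Wald test of DESeq2 called 0 members in each comparison, beside 1.33% of all genes in FoEV vs. Co, 0.00923% in FeEV vs. Co and 0.0277% in FoEV vs. FeEV. The likelihood ratio test with robust dispersion called 1 member, GPX4 in FoEV vs. Co, beside 2.87%, 0.0554% and 0.286% of all genes. The clearest values were a higher GPX4 level in FoEV embryos, by 1.44-fold over Co, and a lower NFE2L2 level, at 0.844 times Co, neither of which passed after adjustment.

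Library totals ranged from 2571558 to 2977004 counts in Co, from 2136713 to 3808602 in FeEV and from 3392613 to 4058887 in FoEV, so that every FoEV library was deeper than every Co library. No library stood apart, with median correlations to the other libraries of 0.949 to 0.97. The blastocyst identity of the pools was visible in the trophectoderm markers, of which 12 of 13 were in the filtered table, with KRT8 at 3613 to 5997 CPM (counts scaled to the normalized library size) and CDX2 at 25.2 to 55.9 CPM, whereas IFNT2 reached at most 9.49 CPM. The inner cell mass markers NANOG and POU5F1 lay at 22.9 to 94.3 CPM and 157 to 238.7 CPM, and FGF4 was at 0 to 0.559 CPM. Among markers of other tissues, the blood and immune markers summed to 17.2 to 39 CPM in Co, 6.15 to 14.7 CPM in FeEV and 10.3 to 24.1 CPM in FoEV. Of these, ALAS2 reached at most 19 CPM and CD74 10.2 CPM, while HBB had 0 counts in all libraries. The oviduct markers summed to 35.8 to 238.1 CPM in Co, 54.7 to 145 CPM in FeEV and 67.8 to 151.9 CPM in FoEV, mostly from MUC1 (22.3 to 219.9 CPM) and PAX8 (4.46 to 12.4 CPM), while OVGP1 reached at most 1.51 CPM. The cumulus and granulosa markers summed to 49.9 to 120.7 CPM in Co, 58.4 to 121.5 CPM in FeEV and 60.6 to 148.4 CPM in FoEV, with CYP11A1 at 24.6 to 104 CPM, CYP19A1 at 13.8 to 38.6 CPM and FSHR at 5.2 to 14.4 CPM, while PTX3 reached at most 0.313 CPM. Their part in the results was not tested. In bulk RNA of embryo pools, fewer cells of a type and less RNA per cell cannot be told apart, and because no transcript lengths were used, CPM values are compared within a gene only.

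**Figure D1:**
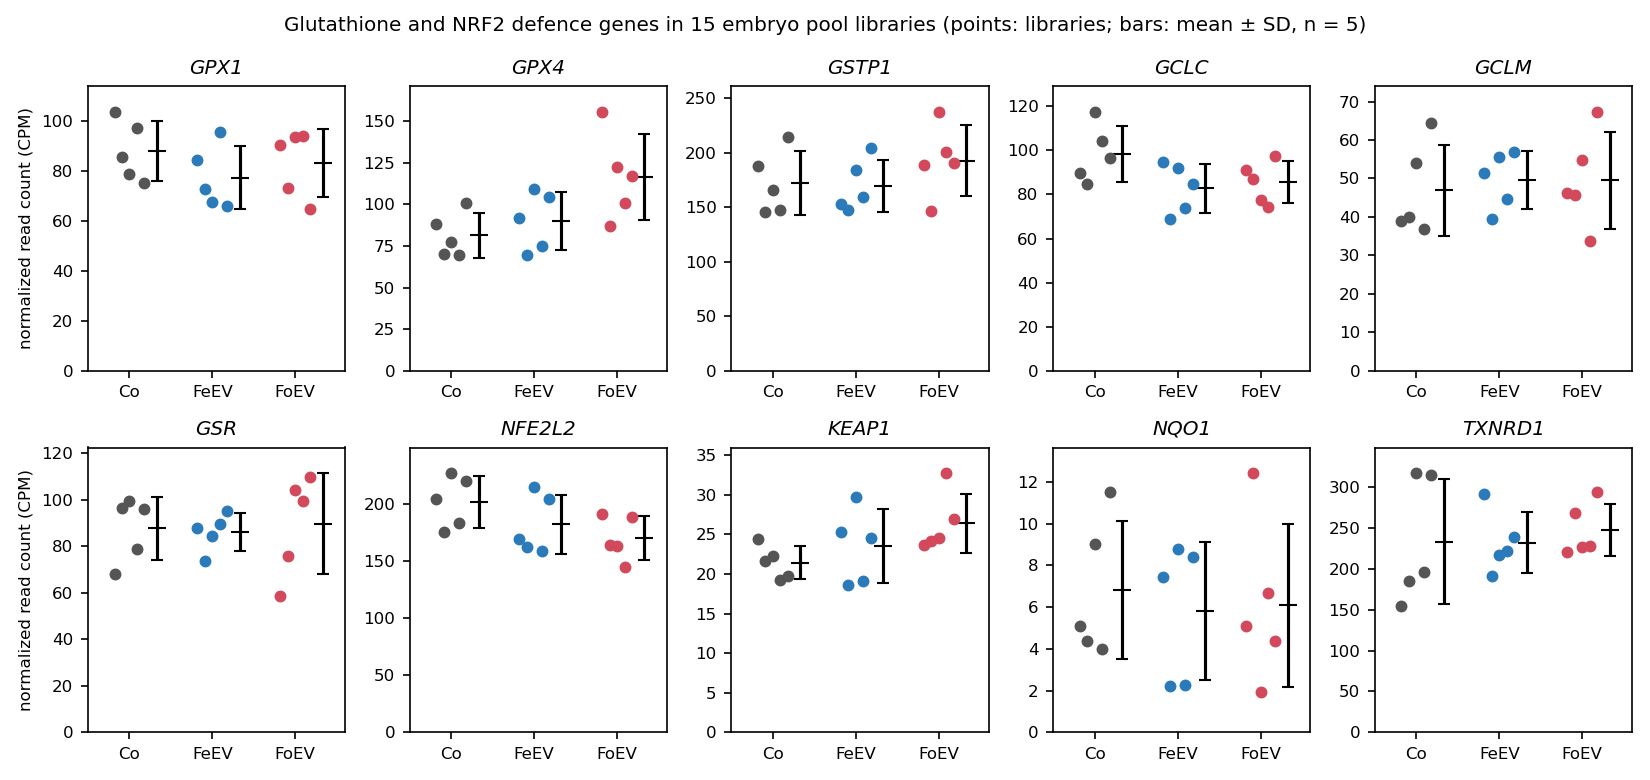
Normalized read counts (CPM, linear axis from 0) of the 10 genes in each library, grouped by treatment on the horizontal axis, with points for single libraries and bars for mean ± SD (n = 5). GPX4 shows the widest offset of FoEV from Co, with 3 FoEV libraries above all Co libraries, while the groups overlap for every gene.

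NFE2L2 (gene 497024) encodes the regulator NRF2 itself. Its normalized read counts in Co were 204.2, 175.1, 226.7, 183 and 220 CPM. In FeEV its values were 169.6, 162.7, 214.9, 158.9 and 204.2 CPM, and in FoEV 191.3, 164, 162.8, 144.9 and 188.4 CPM. The means fell in the order Co (201.8 ± 22.5 CPM, SD, n = 5), FeEV (182.1 ± 25.7) and FoEV (170.3 ± 19.4), and neighbouring groups in this order overlapped. Of the FoEV libraries, 3 lay below all Co libraries, as did 3 of the FeEV libraries. The log2 fold change in FoEV vs. Co was −0.24 (SE 0.11, 95% interval −0.46 to −0.02, unadjusted p = 0.032, adjusted p = 0.278 with edgeR). In FeEV vs. Co it was −0.15 (SE 0.11, interval −0.37 to 0.08, adjusted p = 1), and both comparisons use the same Co libraries.

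KEAP1 (gene 532791), the adaptor that directs NRF2 to degradation, lay on the other side. Its Co libraries held 24.4, 21.6, 22.3, 19.3 and 19.7 CPM, and its FeEV libraries 25.3, 18.6, 29.7, 19.1 and 24.6 CPM. Its FoEV libraries held 23.6, 24.2, 24.5, 32.7 and 27 CPM, of which 3 were above all Co libraries and replicate 4 was the highest. Co averaged 21.4 ± 2.08 CPM, FeEV 23.5 ± 4.65 CPM and FoEV 26.4 ± 3.75 CPM (SD, n = 5), with overlap between neighbours. The log2 fold change in FoEV vs. Co was 0.29 (SE 0.15, interval −0.02 to 0.6, unadjusted p = 0.0616, adjusted p = 0.357), and without FoEV replicate 4 it was 0.21. A noncoding gene overlaps KEAP1 in the reference table but has no row in the deposited counts. Reads from both could not be told apart by position alone.

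Since both genes were counted in the same library, their ratio does not depend on normalization, and it was computed after the separate values had been seen, as a description with no test. The ratio of NFE2L2 to KEAP1 counts was 8.36, 8.11, 10.2, 9.5 and 11.2 in Co. It was 6.69, 8.76, 7.23, 8.31 and 8.31 in FeEV, and 8.1, 6.77, 6.64, 4.43 and 6.98 in FoEV. All FoEV ratios were therefore below all Co ratios, but by only the small step from 8.11 to 8.1 at the border, and the FeEV libraries spanned both. The mean log2 ratio was lower by a difference of −0.54 in FoEV vs. Co, −0.26 in FeEV vs. Co and −0.28 in FoEV vs. FeEV. Leaving out single libraries gave differences of −0.62 to −0.4 for FoEV vs. Co, the smallest without FoEV replicate 4.

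The synthesis of glutathione begins with glutamate cysteine ligase, whose catalytic subunit is encoded by GCLC (gene 512468) and whose modifier subunit by GCLM (gene 525659). GCLC stood at 89.7, 84.7, 117.4, 104 and 96.4 CPM in Co. It stood at 94.5, 68.7, 92, 73.8 and 84.6 CPM in FeEV, and at 91, 87, 77.4, 74.5 and 97.6 CPM in FoEV. Replicates 2, 4 and 5 of FeEV and replicates 3 and 4 of FoEV were below all Co libraries, and the FeEV and FoEV ranges were similar. Co averaged 98.4 ± 12.8 CPM, FeEV 82.7 ± 11.2 CPM and FoEV 85.5 ± 9.57 CPM (SD, n = 5). GCLC was the one member with a low unadjusted p in FeEV vs. Co, with a log2 fold change of −0.25 (SE 0.11, interval −0.48 to −0.01, unadjusted p = 0.0405, adjusted p = 1). The corresponding log2 fold change in FoEV vs. Co was −0.2 (SE 0.11, interval −0.43 to 0.03, adjusted p = 0.402). Without Co replicate 3, the highest control, the FeEV vs. Co value was −0.17.

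In its levels between treatments, GCLM did not follow its partner. It ranged from 36.9 to 64.4 CPM in Co, from 39.4 to 57 CPM in FeEV and from 33.7 to 67.3 CPM in FoEV, so that the treatments covered the same range. Its log2 fold change was 0.08 in FoEV vs. Co (SE 0.17, interval −0.28 to 0.45, adjusted p = 0.85) and 0.09 in FeEV vs. Co (SE 0.18, adjusted p = 1). The ratio of GCLC to GCLM counts was 2.3, 2.11, 2.18, 2.82 and 1.5 in Co. In FeEV it was 1.84, 1.75, 1.65, 1.65 and 1.49, and in FoEV 1.97, 1.91, 1.41, 2.21 and 1.45. Apart from replicate 5, every Co library had a ratio above all FeEV libraries, and the difference of the mean log2 ratio was −0.35 in FeEV vs. Co and −0.28 in FoEV vs. Co, given with no test.

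GSR (gene 506406), the reductase that recycles oxidized glutathione, held 68.2 to 99.3 CPM in Co, 73.5 to 95 CPM in FeEV and 58.6 to 109.9 CPM in FoEV. The FoEV libraries contained both the lowest value, in replicate 1, and the 3 highest values of all libraries. The log2 fold change was 0.02 in FoEV vs. Co (SE 0.15, interval −0.28 to 0.33, adjusted p = 0.953) and −0.03 in FeEV vs. Co (SE 0.15, adjusted p = 1), with signs that changed when single libraries were left out.

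**Figure D2:**
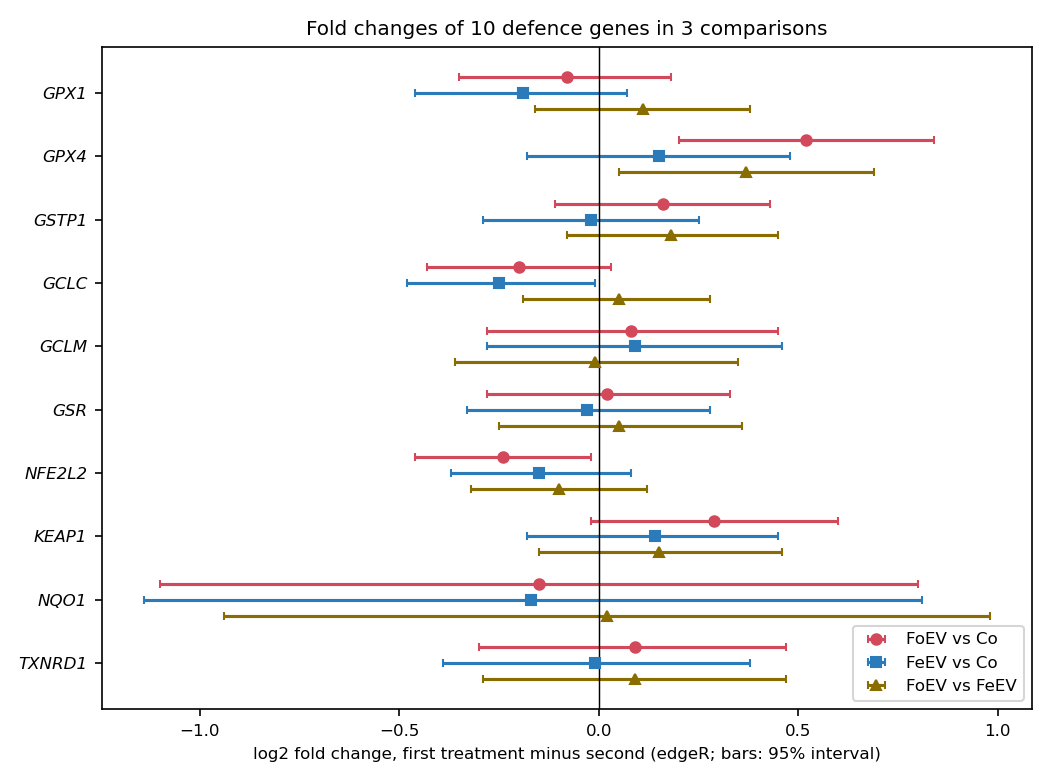
Log2 fold changes (horizontal axis, first treatment minus second) of the 10 genes on the vertical axis, with symbols for the 3 comparisons and bars for the 95% intervals of the edgeR fit. The interval leaves out 0 for GPX4 and NFE2L2 in FoEV vs. Co, for GCLC in FeEV vs. Co and for GPX4 in FoEV vs. FeEV, while NQO1 has the widest intervals.

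Among the members whose enzymes use glutathione, GPX4 and GPX1 encode the selenium-containing peroxidases. GPX4 (gene 286809) reduces lipid hydroperoxides within membranes and protects cells from ferroptosis. Its normalized read counts in Co were 88.2, 70.2, 77.4, 69.8 and 101 CPM, and in FeEV 91.5, 69.4, 109.2, 74.7 and 104.2 CPM. In FoEV they were 155.4, 87, 122.6, 100.5 and 117.2 CPM, with replicates 1, 3 and 5 above every library of both other treatments. The means rank as Co (81.3 ± 13.3 CPM, SD, n = 5), FeEV (89.8 ± 17.5) and FoEV (116.5 ± 25.9), with Co and FeEV closest to each other.

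GPX4 had the lowest p of the members in FoEV vs. Co, at rank 215 of the 10832 genes. Its log2 fold change there was 0.52 (SE 0.15, interval 0.2 to 0.84), which is 1.44-fold with an interval of 1.15 to 1.8, at an unadjusted p of 0.00291 and an adjusted p of 0.145. Without FoEV replicate 1, the highest library, the log2 fold change was 0.4 with an adjusted p of 0.278. GPX4 did pass the adjusted threshold with the likelihood ratio test and robust dispersion (0.49, adjusted p = 0.0424) and with all genes kept (0.52, adjusted p = 0.00436, beside calls for 0.679% of all genes), and the Wald test of DESeq2 gave an adjusted p of 0.0566. Over the 10 other settings the adjusted p ranged from 0.00436 to 0.337. As FoEV libraries were deeper than Co libraries, counts were also thinned to equal depth, which gave 0.49 with an adjusted p of 0.184. GPX4 had a log2 fold change of 0.15 in FeEV vs. Co (SE 0.16, interval −0.18 to 0.48, adjusted p = 1) and 0.37 in FoEV vs. FeEV (SE 0.15, interval 0.05 to 0.69, unadjusted p = 0.0243, adjusted p = 0.538).

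Most trophectoderm markers had the same sign as GPX4. Of 12 markers tested in FoEV vs. Co, 11 had a higher and 1, TFAP2A, a lower level, 4 of them (KRT8, KRT18, GATA3 and GATA2) with an unadjusted p under 0.05 (beside 15.1% of all genes) and 0 with an adjusted p under 0.05, at a median log2 fold change of 0.2. The lowest log2 fold changes were those of TFAP2A (−0.49), PTGS2 (0.01) and DAB2 (0.07). The summed level of the list was 8447 to 11623 CPM in Co, 9070 to 13420 CPM in FeEV and 10837 to 14461 CPM in FoEV. The keratins KRT8 and KRT18 alone summed to 5860 to 8082 CPM in Co and 7727 to 10584 CPM in FoEV, and the remaining markers to 2587 to 3676 CPM and 2740 to 3876 CPM. Of 7 inner cell mass markers tested, 3 were higher and 4 lower in FoEV than in Co, with 1 at an unadjusted p under 0.05, NANOG (log2 fold change −0.84, SE 0.26, unadjusted p = 0.00641, adjusted p = 0.178). Their summed level lay at 559.8 to 709.8 CPM in Co and 520.1 to 789.9 CPM in FoEV, and the part of cell composition in the GPX4 values was not tested.

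**Figure D3:**
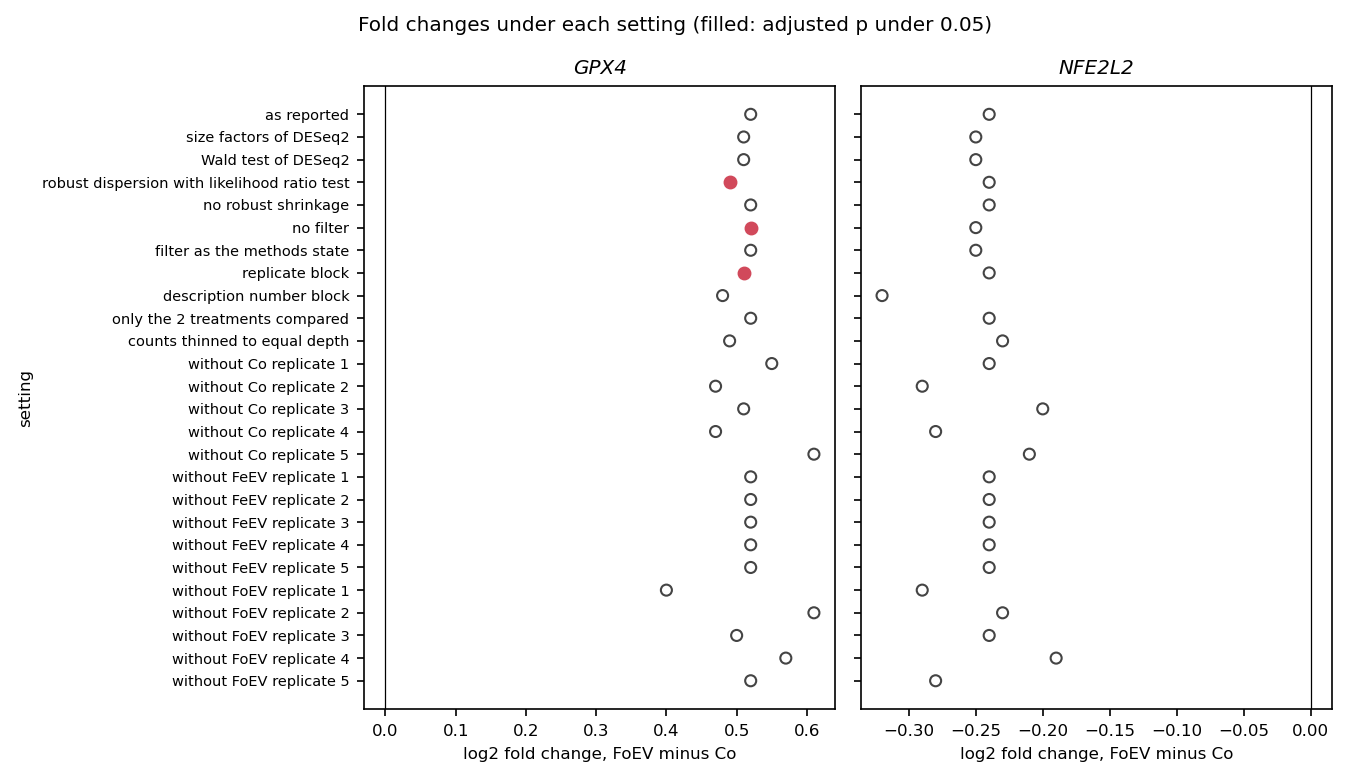
Log2 fold changes of GPX4 and NFE2L2 in FoEV vs. Co (horizontal axes, each with its own range) as reported, under 10 other settings of the fit and without each library in turn (vertical axis). GPX4 stays between 0.4 and 0.61 and NFE2L2 between −0.32 and −0.19, with the adjusted p under 0.05 (filled) for GPX4 in 3 settings.

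GPX1 (gene 281209), which reduces hydrogen peroxide in the cytosol and mitochondria, gave values unlike those of GPX4. Its levels were 103.6, 85.7, 78.7, 97.1 and 75.1 CPM in Co. In FeEV they were 84.3, 72.8, 67.6, 95.6 and 65.9 CPM, and in FoEV 90.5, 73.2, 93.4, 94.1 and 64.6 CPM. The group means of 88 ± 12.1, 77.3 ± 12.6 and 83.2 ± 13.5 CPM (SD, n = 5) lay within 1 SD of each other. The log2 fold change was −0.08 in FoEV vs. Co (SE 0.13, interval −0.35 to 0.18, adjusted p = 0.793) and −0.19 in FeEV vs. Co (SE 0.13, interval −0.46 to 0.07, adjusted p = 1).

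The ratio of GPX4 to GPX1 counts was 0.852, 0.819, 0.984, 0.719 and 1.34 in Co. The ratio was 1.08, 0.954, 1.62, 0.781 and 1.58 in FeEV, and 1.72, 1.19, 1.31, 1.07 and 1.81 in FoEV. The ratio was thus below all FoEV ratios in 4 of the 5 Co libraries, and replicate 5 was the highest in both Co and FoEV. The mean log2 ratio differed by 0.59 in FoEV vs. Co, with 0.5 to 0.73 when single libraries were left out, and by 0.33 in FeEV vs. Co, again without a test since the pair was chosen for its values.

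GSTP1 encodes the pi class transferase that couples glutathione to electrophiles. The reference table lists 2 neighbouring entries for it, and the values here belong to gene 281806, which carries GSTP1 as a synonym, while the entry with GSTP1 as its symbol, gene 525938, held 1 to 10 counts per library and 0.784% of the reads of both. Reads shared by such similar copies could be split by the counting, so that the level is uncertain. It was 145.7 to 214.6 CPM in Co, 147.1 to 204.2 CPM in FeEV and 146.1 to 237.2 CPM in FoEV, with only FoEV replicate 3 above all Co libraries. GSTP1 had a log2 fold change of 0.16 in FoEV vs. Co (SE 0.13, interval −0.11 to 0.43, adjusted p = 0.573), −0.02 in FeEV vs. Co (SE 0.13, adjusted p = 1) and 0.18 in FoEV vs. FeEV (SE 0.13, adjusted p = 0.686).

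The remaining members, NQO1 and TXNRD1, are NRF2 targets that reduce quinones and thioredoxin. NQO1 (gene 519632) was scarcely present, with 5 to 49 counts per library. Its level was 5.1, 4.39, 9.03, 4.01 and 11.5 CPM in Co, 7.45, 2.23, 8.76, 2.28 and 8.38 CPM in FeEV, and 5.09, 12.4, 1.93, 6.68 and 4.36 CPM in FoEV. Libraries of one treatment differed several-fold, with coefficients of variation of 48.4%, 56.5% and 64.2%, and the interval of the FoEV vs. Co log2 fold change ran from −1.1 to 0.8 around −0.15 (SE 0.45, adjusted p = 0.9). The interval takes in both lower and higher levels of NQO1 in FoEV, and the smallest difference that could be detected for this gene was not computed.

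TXNRD1 (gene 282388), the cytosolic thioredoxin reductase, held 155, 184.5, 316.4, 195.5 and 314.3 CPM in Co. It held 291.8, 190.9, 216.8, 221.3 and 238.6 CPM in FeEV, and 220.9, 267.9, 227, 227.4 and 293.6 CPM in FoEV. The 2 highest and the 2 lowest of the 15 libraries were all controls, so that the coefficient of variation was 32.8% in Co and 16.2% and 12.9% in FeEV and FoEV, while the means were 233.1, 231.9 and 247.4 CPM. Fitted differences on the log2 scale were 0.09 in FoEV vs. Co (SE 0.18, interval −0.3 to 0.47, adjusted p = 0.853) and −0.01 in FeEV vs. Co (SE 0.18, adjusted p = 1). EID3 overlaps TXNRD1 in the reference table and held 15 to 68 counts per library, beside 425 to 1077 counts for TXNRD1.

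Taken by direction, 6 members had a higher and 4 a lower fitted level in FoEV than in Co, with a median log2 fold change of 0.05 beside 0.01 for all genes. In FeEV vs. Co, 3 were higher and 7 lower, with a median of −0.02 beside 0 for all genes, and in FoEV vs. FeEV, 8 were higher and 2 lower, with a median of 0.07 beside 0.01. These comparisons share libraries in pairs and are not separate evidence.

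Members were also compared with each other within treatments. Correlations were computed on log2 CPM as deviations from the treatment means over the 15 libraries, with values permuted within treatments 100000 times, for 45 pairs, of which 33 were positive and 12 negative. No pair passed an adjusted p of 0.05. Where r is also given without 2 libraries, these were the libraries farthest from the median of a single gene of the pair. That gene was GPX1 for the pairs of GPX1 and is named for the others. NFE2L2 and GCLM had a Pearson's r of 0.74 (permutation p = 0.00366, adjusted p = 0.0827) and a Spearman's rho of 0.72 (permutation p = 0.00509, adjusted p = 0.107), with r = 0.72 without the 2 libraries farthest for GCLM. NFE2L2 and GPX4 had an r of 0.76 (permutation p = 0.00511, adjusted p = 0.0827) and a rho of 0.66 (permutation p = 0.0194, adjusted p = 0.125), with r = 0.79 without the 2 libraries farthest for GPX4. For comparison, r between NFE2L2 and all other genes had a 5th to 95th percentile range of −0.65 to 0.67, a span these 2 pairs lie just above, and the libraries share differences in depth and composition.

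NFE2L2 and GCLC had an r of 0.68 (permutation p = 0.0148, adjusted p = 0.124) and a rho of 0.7 (permutation p = 0.0126, adjusted p = 0.107), with r = 0.59 without the 2 libraries farthest for GCLC. GPX4 and GSTP1 gave 0.73 (permutation p = 0.0059, adjusted p = 0.0827) and a rho of 0.77 (permutation p = 0.00269, adjusted p = 0.107), with r = 0.8 without the 2 libraries farthest for GPX4. Within treatments NFE2L2 and GPX4 thus had a positive r, while between FoEV and Co their means differed in opposite directions. GCLM had an r of 0.71 with TXNRD1 (permutation p = 0.00735, adjusted p = 0.0827) and of 0.58 with GCLC (permutation p = 0.0333, adjusted p = 0.157). GPX1 had negative values toward the 9 other members, from near 0 with GSTP1 (r = −0.06), KEAP1 (−0.11, which became 0.1 without the 2 farthest libraries) and GPX4 (−0.15) to r = −0.65 with GCLM (permutation p = 0.0165, adjusted p = 0.124, rho = −0.67, permutation p = 0.0143, adjusted p = 0.107, r = −0.58 without the 2 farthest). NFE2L2 and its inhibitor KEAP1 gave an r of 0.28 (permutation p = 0.379, adjusted p = 0.533) and a rho of 0.29 (permutation p = 0.368, adjusted p = 0.534), with r = 0.02 without the 2 libraries farthest for NFE2L2.

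**Figure D4:**
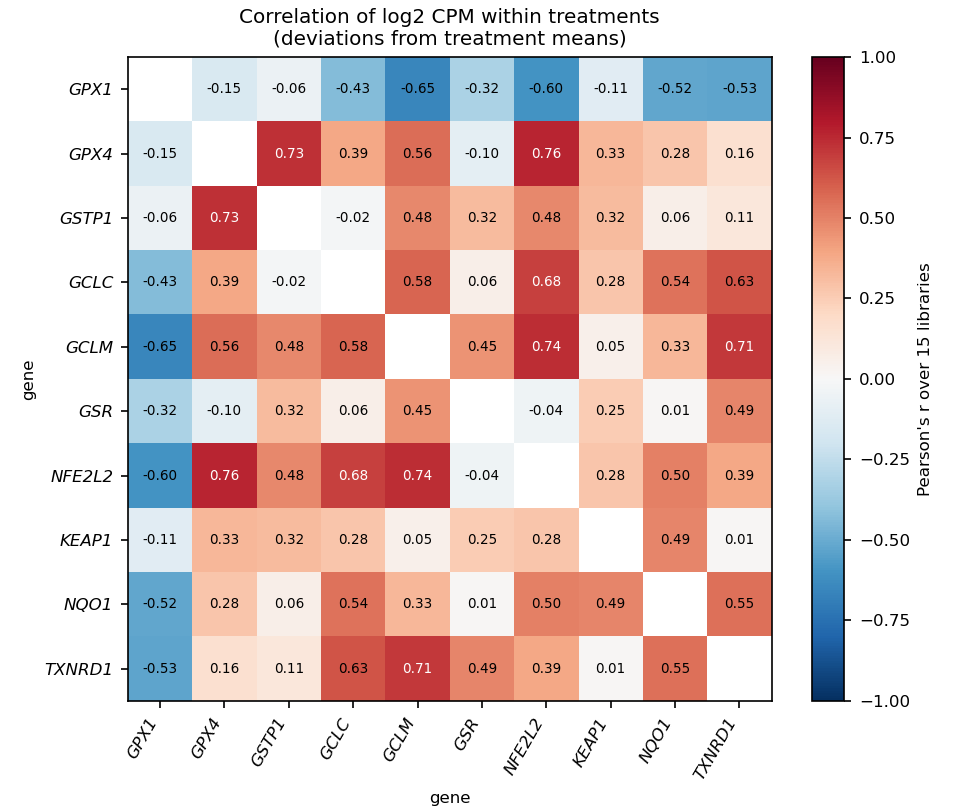
Pearson's r (colour and number) between the 10 genes on both axes, from log2 CPM as deviations from treatment means over 15 libraries. NFE2L2 is positive with GPX4 (0.76), GCLM (0.74) and GCLC (0.68), and the row of GPX1 is negative throughout.

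Over all 15 libraries, treatment differences included, the genes with levels most like GPX4 were KRT18, a trophectoderm keratin, DNPEP and PDLIM4, each with an r of 0.93. For NFE2L2 they were C16H1orf21, HSP90B1, a chaperone of the endoplasmic reticulum, and TMEM62, each with an r of 0.87. For GPX1 they were NDRG1 (0.89), a hypoxia-responsive gene, FLNC (0.83) and PTBP1 (0.82). These values describe likeness among 10832 genes and carry no test.

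The wider pathway gave no gene with an adjusted p under 0.05 by edgeR's quasi-likelihood test in any list or comparison. In the list of glutathione synthesis and recycling, 14 of 18 genes were measured, 12 were higher and 2 lower in FoEV than in Co, and 1 had an unadjusted p under 0.05 beside the 15.1% of all genes. That gene was CHAC1, which degrades glutathione, with 7.66, 5.06, 6.45, 6.02 and 4.1 CPM in Co, 13.4, 8.17, 7.19, 12.3 and 7.54 CPM in FeEV and 8.1, 8.83, 12.4, 20.4 and 4.09 CPM in FoEV. CHAC1 held only 10 to 61 counts per library. In FoEV, replicates 1 to 4 were above all Co libraries and replicate 5 was just below them, at 4.09 beside 4.1 CPM. Without FoEV replicate 4, the highest library, 0 genes of this list had an unadjusted p under 0.05. The log2 fold change of CHAC1 in FoEV vs. Co was 0.84 (SE 0.33, unadjusted p = 0.0183, adjusted p = 0.23). In FeEV vs. Co it was 0.71 (SE 0.34, unadjusted p = 0.0473, adjusted p = 1), with 3 of the 5 FeEV libraries above all Co libraries. Among genes outside the 10 members, the next by p were GGT1, which cleaves extracellular glutathione, at 2.36 to 10.3 CPM in Co and 4.04 to 11.4 CPM in FoEV, and OPLAH, which returns oxoproline to glutamate, at 12.1 to 25.2 and 13.1 to 31.4 CPM, both with overlapping groups.

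In the list of glutathione peroxidases, transferases and glutaredoxins, 19 of 36 genes were measured, and 12 were higher and 7 lower in FoEV than in Co, with 3 higher genes at an unadjusted p under 0.05, a share close to the 15.1% of all genes, and a median log2 fold change of 0.14. Besides GPX4 they were GLRX, the glutaredoxin that removes glutathione from proteins, and MGST3, a microsomal transferase. GLRX held 129.7 to 189.9 CPM in Co, 144.7 to 206.8 CPM in FeEV and 171.5 to 225.1 CPM in FoEV, where 4 of 5 libraries were above all Co libraries, at a log2 fold change of 0.34 (SE 0.11, adjusted p = 0.174). MGST3 held 4.01 to 8.62 CPM in Co and 6.82 to 11 CPM in FoEV (log2 fold change 0.57, SE 0.24, adjusted p = 0.259). GSTCD, a gene with a transferase-like domain, held 34.6 to 50.9 CPM in Co and 29 to 40.8 CPM in FoEV (log2 fold change −0.24, SE 0.12, adjusted p = 0.373). Among genes below the filter, GSTA3 was higher in FoEV than in Co when all genes were kept. Its log2 fold change was 1.71 (adjusted p = 0.0344 with edgeR, beside calls for 0.679% of all genes). GSTA3 had too few reads for the authors' filter, every FoEV library was deeper than every Co library, and the part of depth in this value was not tested. In FoEV vs. FeEV, GPX4 and the omega class transferase GSTO1 had an unadjusted p under 0.05 beside 8.52% of all genes, and in FeEV vs. Co 0 genes of the list did beside 4.15%.

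Of the NRF2 regulators and partners, 21 of 23 were measured, 10 with a higher and 11 with a lower level in FoEV than in Co and a median log2 fold change of 0. SQSTM1, whose protein p62 binds KEAP1 and is also encoded by an NRF2 target gene, had 103.4 to 134.8 CPM in Co, 107.3 to 137.3 CPM in FeEV and 127.9 to 165.3 CPM in FoEV. Its log2 fold change was 0.33 in FoEV vs. Co (SE 0.1, unadjusted p = 0.00366, adjusted p = 0.153), and it was, with NFE2L2, the only gene of this list at an unadjusted p under 0.05 there, so that 2 of 21 stood beside 15.1% of all genes. CUL3, the scaffold of the ligase that KEAP1 joins, held 256.1 to 292.2 CPM in Co and 225 to 274.2 CPM in FoEV, and GSK3B, a kinase that marks NRF2 for degradation, held 112.4 to 126.4 and 99.5 to 122.1 CPM.

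Of the NRF2 targets outside glutathione synthesis, 21 of 25 were measured, and 18 were higher and 3 lower in FoEV than in Co, with a median log2 fold change of 0.11 beside 0.01 for all genes. The 4 of 21 with an unadjusted p under 0.05 were all higher, namely TALDO1, BLVRB, FTH1 and PRDX1, a peroxiredoxin. That share was near the 15.1% of all genes under this threshold, of which 886 were higher and 745 lower. The listed targets SRXN1 (log2 fold change 0.09, SE 0.38) and HMOX1 (0.44, SE 0.44) were not under it. TALDO1, the transaldolase of the pentose phosphate pathway, held 141.5, 141.7, 143.5, 139.3 and 168.7 CPM in Co, 161.2, 136.7, 173.9, 161.2 and 173.7 CPM in FeEV and 226, 173.1, 221.2, 190 and 173.6 CPM in FoEV. Every FoEV library was above every Co library, and the log2 fold change was 0.42 (SE 0.1, unadjusted p = 0.000283, adjusted p = 0.0774), the lowest p in the pathway lists. TALDO1 passed the adjusted threshold in 4 of 10 other settings, among them the Wald test of DESeq2 (0.42, adjusted p = 0.00844, with 144 genes called in all), the likelihood ratio test (adjusted p = 0.00877, with 311 called) and all genes kept (adjusted p = 0.0217, with 173 called), and it did not pass in the remaining 6, where the adjusted p reached 0.195. With all genes kept, BLVRB (0.6, adjusted p = 0.0135) passed too. FTH1, the heavy chain of ferritin that stores iron, held 1086 to 1481 CPM in Co and 1503 to 1728 CPM in FoEV (log2 fold change 0.27, SE 0.11, adjusted p = 0.225). Neither TALDO1 nor FTH1 overlapped between FoEV and Co, but the share of all genes without overlap was not computed, so this is a description only.

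BLVRB, biliverdin reductase B, held 16.1 to 38.6 CPM in Co and 37.5 to 51.4 CPM in FoEV (log2 fold change 0.6, SE 0.19, adjusted p = 0.165). PRDX1 had a mean of 971.5 ± 96.3 CPM in Co and 1136 ± 102.7 CPM in FoEV (SD, n = 5), at a log2 fold change of 0.23 (SE 0.11, adjusted p = 0.313). In FoEV vs. FeEV, 3 genes of this list (FTH1, TALDO1 and BLVRB) had an unadjusted p under 0.05 beside 8.52% of all genes, all higher in FoEV, and in FeEV vs. Co 0 genes did beside 4.15%, with 12 higher and 9 lower. NQO1 is in this list too but had a negative log2 fold change in FoEV vs. Co, as given above, with an interval that spans the values of these genes.

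GPX1, GPX4 and TXNRD1 carry selenocysteine and depend on its insertion machinery. The list of selenoprotein genes and synthesis factors is not complete, and leaves out GPX2 and GPX3. Of the listed genes, 20 of 28 were measured, 10 higher and 10 lower in FoEV than in Co with a median log2 fold change of 0.01. GPX4 was the only higher gene with an unadjusted p under 0.05, and with the lower ones 3 of 20 passed it, beside 15.1% of all genes. The 2 lower ones were SEPSECS, the enzyme that makes selenocysteine on its tRNA, with 32.8 to 49 CPM in Co and 26.2 to 38.8 CPM in FoEV (log2 fold change −0.3, SE 0.13, adjusted p = 0.284), and SELENOI, a phospholipid-synthesizing selenoprotein, with 194.7 to 238.6 CPM in Co and 140.6 to 193.1 CPM in FoEV (−0.3, SE 0.11, adjusted p = 0.216). Every FoEV library of SELENOI was below every Co library, again without a count of how many of all genes separate in this way. Genes of this list thus stood on both sides of 0. SELENOF, a selenoprotein of the endoplasmic reticulum, held 93.7 to 130.5 CPM in Co and 82.1 to 109 CPM in FoEV (−0.2, SE 0.1, adjusted p = 0.343).

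**Figure D5:**
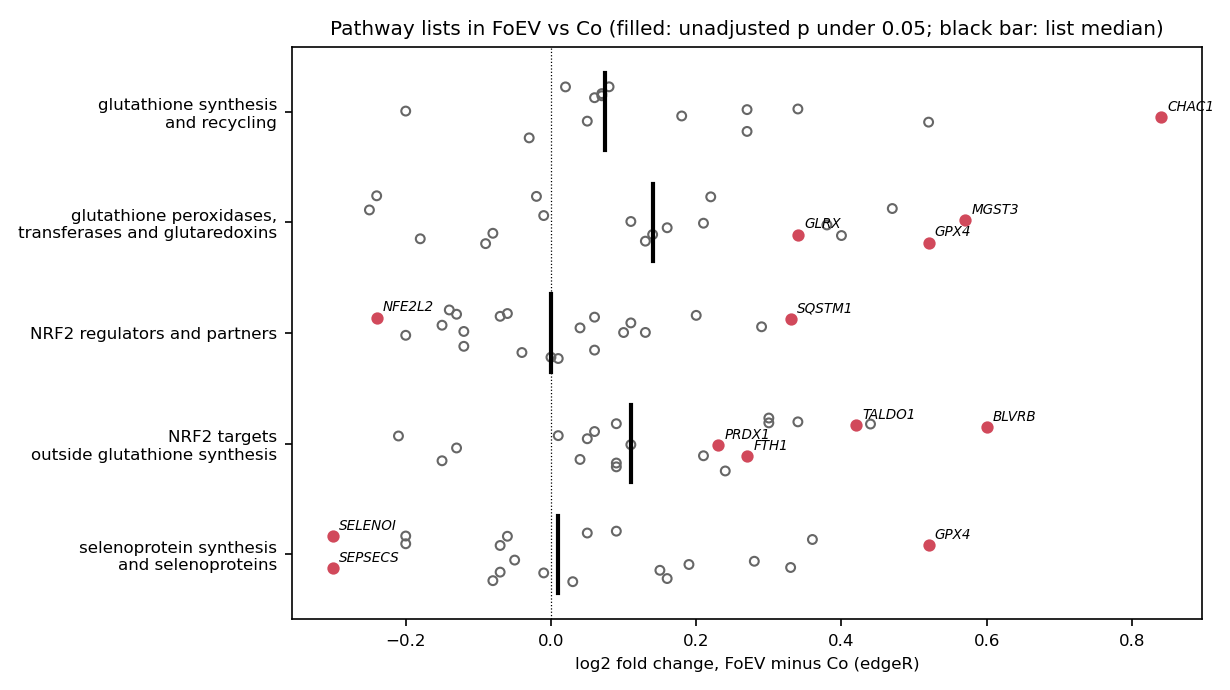
Log2 fold changes in FoEV vs. Co (horizontal axis) of the measured genes of 5 pathway lists (vertical axis, points spread for legibility), filled and named at an unadjusted p under 0.05, with a black bar at each list's median. The 4 named NRF2 targets outside glutathione synthesis all lie above 0, and the selenoprotein list has named genes on both sides.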

How the data were processed

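The authors mapped reads from low-input libraries (Ovation SOLO) to ARS-UCD1.2 and deposited raw counts per gene in an unfiltered table and in a filtered table. The methods name QuasR Qcount for counting, and the submitters' processing notes list Trim Galore 0.4.3.1, HISAT2 2.1.0 and featureCounts 1.6.3. Mapping was not repeated. Gene IDs were matched to a RefSeq table of ARS-UCD2.0 (10709 of 10832 matched), for names only.

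Filtered counts of all 15 libraries were fitted with edgeR 4.0.16 in R 4.3.3 (TMM scaling, estimateDisp, robust quasi-likelihood F test, Benjamini-Hochberg over 10832 genes), with treatment as the only factor. SE is the log2 fold change divided by the square root of F. Log2 CPM used a prior count of 2. On simulated counts of FoEV vs. Co with 10832 genes, 75.5% of 200 genes changed by 1 on the log2 scale were recovered. The largest log2 fold change of a member was 0.52 (GPX4 in FoEV vs. Co), and recovery of changes of that size or smaller was not simulated. Alternatives were DESeq2 1.42.0, the likelihood ratio test with robust dispersion, other filters, blocks, equal depth and each library left out. Named were all members, the 3 further genes with the lowest p in FoEV vs. Co of each of 5 lists (GGT1, OPLAH, GSTCD and SELENOF among them had an unadjusted p above 0.05), and the 3 genes most like NFE2L2, GPX1 and GPX4. PRDX1, GSTO1, SRXN1 and HMOX1 were named after their values were seen. One gene of the NRF2 target list is not reported here and was left out of its counts. Members and lists were chosen with earlier results of these data known. Libraries are separate pools of embryos, and the labels do not say whether they came from separate fertilization batches, so p-values measure the spread between pools.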

Additional observations from a re-analysis of the deposited data

How the results depend on the processing

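Besides the fits reported, 10 settings were run and each of the 15 libraries was left out in turn. The number of members with an adjusted p under 0.05 in FoEV vs. Co was 0 as reported and 1 (GPX4) with the likelihood ratio test and robust dispersion, with no filter and with the replicate block, and it was 0 in all fits without 1 library. With no filter, 25470 genes were tested, and the unadjusted p of GPX4 with edgeR's quasi-likelihood test was 5.31e-06 instead of 0.00291, at the same log2 fold change of 0.52. The cause of the differences between settings was not tested. Over all genes, FoEV vs. Co gave 1 call as reported, 144 with the Wald test of DESeq2, 311 with the likelihood ratio test, 173 with no filter and 57 with the replicate block. The replicate numbers were not treated as pairing, since the rule used asked every same-numbered pair of libraries to correlate above 0.1. Same-numbered libraries correlated at −0.29 to 0.44 (7 of 15 pairs above 0.1), and 5 libraries matched their own number best. The mean was 0.12 for the same and −0.03 for other numbers, and the replicate 5 pairs lay at 0.35 to 0.44, so that pairing of some libraries is not excluded. The numbers in the sample descriptions differ and were not checked in this way. GPX4 in FoEV vs. Co was 0.51 (adjusted p = 0.0365) with the replicate block and 0.48 (adjusted p = 0.337) with a block for the library number in the sample descriptions, and TALDO1 had adjusted p values of 0.0433 and 0.195.

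Members with an unadjusted p under 0.05 numbered 2 in FoEV vs. Co, 3 with the description number block, 1 at equal depth, and 1 to 3 without 1 library (1 without Co 3, Co 5, FoEV 2, FoEV 3 or FoEV 4). In FeEV vs. Co the number was 1, and 0 to 1 without 1 library (0 without Co 3, Co 4, Co 5, FeEV 2 or FeEV 5). In FoEV vs. FeEV it was 1, 0 with the description number block, and 0 to 2 without 1 library (0 without FeEV 2, FeEV 4 or FoEV 1, and 2 without FoEV 2).

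Signs turned for log2 fold changes of GPX1, GSTP1, GCLC, GCLM, GSR, NQO1 and TXNRD1. With the description number block, FoEV vs. Co gave 0.06 for GPX1, −0.04 for GCLM and −0.02 for GSR, FeEV vs. Co gave 0.06 for GSTP1 and −0.02 for GCLM, and FoEV vs. FeEV gave −0.1 for NQO1. At equal depth, GSR was −0.07 in FoEV vs. Co and −0.05 in FoEV vs. FeEV, TXNRD1 was 0.01 in FeEV vs. Co and NQO1 −0.15 in FoEV vs. FeEV. The likelihood ratio test gave 0.1 for TXNRD1 in FeEV vs. Co and −0.15 for NQO1 in FoEV vs. FeEV, and the replicate block 0.03 for TXNRD1 in FeEV vs. Co.

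Without 1 library, FoEV vs. Co ranged from −0.05 to 0.22 for GCLM, −0.06 to 0.15 for GSR, −0.6 to 0.1 for NQO1 and −0.03 to 0.22 for TXNRD1. FeEV vs. Co ranged from −0.1 to 0.07 for GSTP1, −0.11 to 0.02 for GSR, −0.35 to 0.08 for NQO1 and −0.12 to 0.13 for TXNRD1. FoEV vs. FeEV ranged from −0.01 to 0.1 for GCLC, −0.14 to 0.1 for GCLM, −0.03 to 0.17 for GSR and −0.43 to 0.24 for NQO1. GPX4, NFE2L2, KEAP1, GSTP1 and GCLC kept their sign in every fit of FoEV vs. Co. Among the members, NQO1 had both the fewest counts, 5 to 49 per library, and the largest mean coefficient of variation within treatments, 56.4%.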
